A study of Mus musculus with 2 samples.

Results

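The genes described here are 10 that carry the liver's handling of glucose: the gluconeogenic enzymes Pck1, Fbp1 and G6pc, the glucose transporter gene Slc2a2, the glycogen genes Gys2, Pygl, Ppp1r3b and Ppp1r3c, and the pyruvate genes Pklr and Pdk4. They were chosen by name for their known function and not by their values, although earlier results of these data were known when the list was made. All 10 had a probe matched through its RefSeq identifier, among 20652 genes so matched on the arrays, and 9 of the 10 had 1 probe each, Gys2 having the other 2 of 11. Each of the 11 probes was printed as 1 spot per array and lay well above background on both arrays.

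The Ad-378 group was 1 pool of livers from 5 male mice that had received an adenovirus made to overexpress miR-378, a microRNA, and the Ad-Ctrl group was 1 pool of livers from 5 male mice that had received the control adenovirus. In both groups the virus (1e9 plaque forming units) went into the tail vein of 8-week-old mice, so both carried an adenovirus and neither was uninjected. By the protocols liver was taken after 2 weeks, whereas 3 weeks stands in the description given for Ad-378, and the RNA protocol is one for blood with removal of globin message, although the tissue is labelled liver. The strain, the feeding state and the hour of collection, on which several of these genes are known to depend, are not given in the labels.

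In the fed liver, glucose enters hepatocytes through the transporter encoded by Slc2a2 (GLUT2), is phosphorylated, and is stored as glycogen or broken down to pyruvate. In fasting the same transporter lets glucose out, after glycogen is cut by phosphorylase or new glucose is built from pyruvate through the steps of Pck1, Fbp1 and G6pc. Insulin and glucagon set the direction largely through transcription, with FoxO1 and CREB known to act on the Pck1 and G6pc promoters. In mouse liver, miR-378 has been reported to target Pik3ca, the catalytic p110-alpha subunit of the kinase that carries the insulin signal.

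None of the 10 genes differed 2-fold between the pools (0 of 10, beside 7.36% of all 14288 measured genes), although Gys2 passed 2-fold under 1 other background correction (log2 difference 1.06, normexp with the deposited local backgrounds). Gys2, the liver glycogen synthase, and Pdk4, the kinase that shuts pyruvate out of oxidation, were higher in the Ad-378 pool by 1.74-fold and 1.75-fold. Ppp1r3b, a subunit that directs protein phosphatase 1 to glycogen in liver, was 1.62-fold lower. Pck1 and G6pc, which carry an early step and the last step of glucose production, differed by 1.08-fold each, less than the error of the scanner. Each group had 1 array, which leaves the spread between mice unmeasured, so no p-value is given and no difference has a replicate check.

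The promoters of Pck1, G6pc and Pdk4 are shown because the first pair are the classical hormone-controlled genes of glucose output, whose differences were alike and small, and Pdk4 had the highest difference of the 10. Each runs 5′ to 3′ from 250 bases before the annotated start to 50 after it, taken from RefSeq, and capitals mark the motifs found.
Pck1 (chr2:173152823-173153122, GRCm38.p6, + strand): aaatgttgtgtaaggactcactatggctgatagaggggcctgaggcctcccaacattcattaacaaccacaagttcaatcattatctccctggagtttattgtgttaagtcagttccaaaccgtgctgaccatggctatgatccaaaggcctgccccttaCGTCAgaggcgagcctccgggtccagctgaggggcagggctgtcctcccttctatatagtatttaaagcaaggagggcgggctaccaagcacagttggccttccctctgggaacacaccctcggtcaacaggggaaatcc
G6pc (chr11:101367466-101367765, GRCm38.p6, + strand): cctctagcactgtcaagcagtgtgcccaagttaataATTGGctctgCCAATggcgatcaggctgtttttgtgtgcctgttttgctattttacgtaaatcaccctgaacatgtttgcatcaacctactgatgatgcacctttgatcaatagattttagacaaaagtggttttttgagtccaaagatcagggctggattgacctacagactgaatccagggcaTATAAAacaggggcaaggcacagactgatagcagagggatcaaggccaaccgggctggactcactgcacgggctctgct
Pdk4 (chr6:5496229-5496528, GRCm38.p6, - strand): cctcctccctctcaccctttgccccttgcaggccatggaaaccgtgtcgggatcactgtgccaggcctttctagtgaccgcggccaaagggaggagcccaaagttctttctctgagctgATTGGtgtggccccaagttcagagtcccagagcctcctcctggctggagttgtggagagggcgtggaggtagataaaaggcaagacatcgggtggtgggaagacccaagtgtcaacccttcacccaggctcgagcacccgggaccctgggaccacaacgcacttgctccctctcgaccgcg
Short motifs of several kinds were searched on both strands: the core of the cyclic AMP response element (TGACG), the TATA box (TATAAA), a FoxO-type site (TGTTTAC), the E-box (CACGTG) and the CCAAT box (CCAAT), none of which overlaps another in these windows. The response element core of Pck1 and some CCAAT boxes are printed as their reverse complements, CGTCA and ATTGG. Pck1 held the response element core, starting 90 bases before the start, in the region known to bind CREB. G6pc held a TATA box 29 bases before the start and 2 CCAAT boxes, and Pdk4 held 1 CCAAT box. Of all 32851 promoters in the table, 20.8% held the response element core, 13.6% the TATA box, 3.65% the FoxO-type site, 7.15% the E-box and 37.4% the CCAAT box. Promoters were found for 8 of the 10 genes (9 windows, since Pklr has 2 starts). Among the 9 windows, 2 held the response element core (Pck1 and Pygl), 2 a TATA box (G6pc and Pklr), 1 an E-box (Ppp1r3c), 6 a CCAAT box and 0 the FoxO-type letters. Only these exact letters were searched. A window without them, such as that of G6pc, can still hold a FoxO or CREB site with other letters. Gys2 and Ppp1r3b had no entry.

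Values below are relative signals, the processed signal of a probe divided by the 75th percentile of its array (767 in Ad-378 and 881 in Ad-Ctrl), with the error that the scanner software deposited for the spot. Signals of different probes are not comparable with each other. A log2 difference is Ad-378 minus Ad-Ctrl, and its scanner error is about 0.20. The deposited error was near 10% of the signal for each of the 11 probes, at most 10.5% (Pklr in Ad-Ctrl). For these genes the 95% range was thus close to a fixed cutoff of 0.40. Probes with at least 10 spots had a median standard deviation between spots of 0.065 log2 units in Ad-378 and 0.060 in Ad-Ctrl. Neither measure covers the spread between mice or pools. Differences outside the 95% range of that error are counted separately from those of 2-fold. Of 14288 genes measured on both arrays, 33.2% lay outside that range, 15.7% higher and 17.5% lower in Ad-378, so passing it was common.

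Gluconeogenesis and glucose release came first in the order of function. Pck1, the cytosolic phosphoenolpyruvate carboxykinase, had a relative signal of 124 ± 12.4 in Ad-378 and 115 ± 11.5 in Ad-Ctrl, a log2 difference of 0.11. G6pc, the catalytic subunit of glucose 6-phosphatase, had 63.2 ± 6.32 in Ad-378 and 58.4 ± 5.84 in Ad-Ctrl, a log2 difference of 0.11. For both genes the ranges of the pools overlapped. Before scaling, the processed signal of Pck1 was 94741 in Ad-378 and 100863 in Ad-Ctrl, so its small positive value came from the division by the 75th percentile. The sign of both turned with the scaling: Pck1 was at -0.08 and G6pc at -0.06 under quantile normalization, and they were at -0.11 and -0.08 under loess normalization. Fbp1, the fructose bisphosphatase between those steps, had 145 ± 14.5 in Ad-378 and 117 ± 11.7 in Ad-Ctrl, 1.24-fold higher, which was inside the 95% range and 0.08 on the log2 scale under loess normalization. Slc2a2, the transporter through which glucose leaves the cell, was the only member of this group with a negative difference, with 9.88 ± 0.988 in Ad-378 against 12.4 ± 1.24 in Ad-Ctrl (log2 difference -0.32, inside the 95% range).

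Around these 4 genes the rest of the route was likewise within 2-fold. Of 11 genes of glucose production and release, all measured, 0 were 2-fold apart and 7 had a positive difference. Their median was 0.11, beside a median of 0.04 over all 14288 genes. It was -0.06 under quantile normalization and -0.08 under loess normalization, beside -0.005 and -0.03 over all genes. Pcx, the pyruvate carboxylase that opens the route, had the highest value at 0.55, with relative signals of 28.7 in Ad-378 and 19.6 in Ad-Ctrl. Slc37a4, which carries glucose 6-phosphate to G6pc, followed at 0.41. Pck2, the mitochondrial carboxykinase, was lowest at -0.40, but was dim (0.0444 in Ad-378 and 0.0588 in Ad-Ctrl), as was Fbp2, the muscle fructose bisphosphatase, at -0.34 (-1.15 to -0.02 over the 9 settings, past 2-fold in 1).

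**Figure D1:**
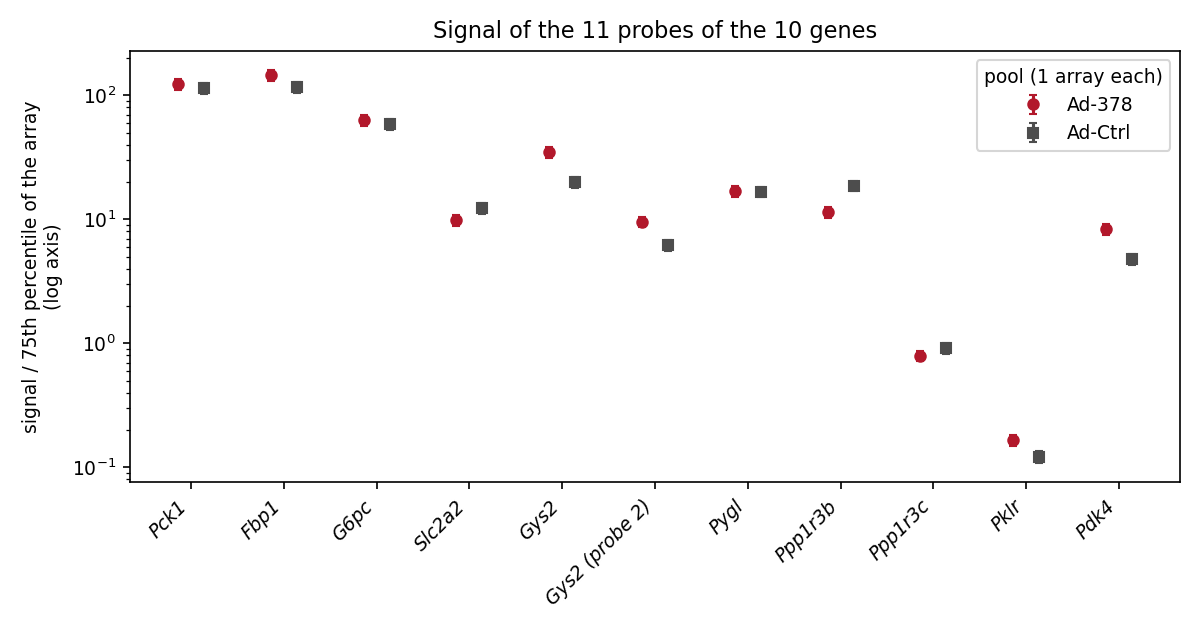
Relative signal (processed signal over the 75th percentile of the array, log axis) of each of the 11 probes in the Ad-378 pool (circles, left) and the Ad-Ctrl pool (squares, right), 1 array each, with the deposited scanner error as bars. Both Gys2 probes and Pdk4 lie higher in Ad-378 and Ppp1r3b lower, while the pairs of Pck1, G6pc and Pygl overlap.

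The glycogen genes held the widest contrast. Gys2 makes glycogen in liver, and its brighter probe had a relative signal of 34.8 ± 3.48 in Ad-378 and 20.0 ± 2.00 in Ad-Ctrl, a log2 difference of 0.80 and a 95% range of 0.40 to 1.20. Its other probe had 9.60 ± 0.960 in Ad-378 and 6.19 ± 0.619 in Ad-Ctrl, a log2 difference of 0.63. Both probes of Gys2 thus gave the same direction, outside the range of scanner error. Pygl, the liver phosphorylase that releases glucose from glycogen, had 17.0 ± 1.70 in Ad-378 and 16.7 ± 1.67 in Ad-Ctrl, the smallest difference of the 10 genes (0.02).

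Ppp1r3b encodes the glycogen-targeting subunit known as GL, which brings the phosphatase that activates glycogen synthase to the glycogen particle. It had 11.5 ± 1.15 in Ad-378 and 18.7 ± 1.87 in Ad-Ctrl, a log2 difference of -0.70 with a 95% range of -1.10 to -0.30, the lowest of the 10. Ppp1r3c encodes a related targeting subunit, known as PTG, and had 0.797 ± 0.0798 in Ad-378 and 0.918 ± 0.0919 in Ad-Ctrl, a log2 difference of -0.20, inside the range of scanner error. The synthase and its main liver targeting subunit therefore lay on opposite sides of 0.

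Contrasts between genes of the same arrays do not move with a common scaling factor. The difference of Gys2 exceeded that of Ppp1r3b by 1.42 to 1.55 log2 units over the 8 other settings, with a scanner error of 0.29. It exceeded that of Pygl by 0.78, and by 0.69 to 0.78 over the 8 other settings, above the half-width of 0.57 of the 95% range. Ppp1r3b and Ppp1r3c differed from each other by -0.50, inside that half-width. These pairs were chosen after the values were seen. A contrast of this kind shows unequal differences, not which of the genes differed.

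Of 15 glycogen enzyme genes, 14 were measured, with 0 higher and 1 lower by 2-fold or more, and their median was -0.08. The lower one was Pygb, the phosphorylase of brain, at -1.49, with 0.0888 in Ad-378 and 0.250 in Ad-Ctrl. It lay just inside 2-fold on the series matrix values and at -0.90 after normexp background correction with flagged backgrounds replaced. Gbe1, the branching enzyme, had -0.55 (14.7 in Ad-378 and 21.6 in Ad-Ctrl). Nhlrc1, a ubiquitin ligase (malin) that acts on glycogen-targeting subunits, had 0.56, with values of both signs over the settings (-0.09 to 0.60).

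Of 17 phosphatase and phosphorylase kinase subunits and glycogen synthase kinases, 14 were measured, 10 of them with a negative difference, and the median was -0.15. No gene of this list was 2-fold apart. Ppp1r3d, another targeting subunit, was closest at -0.99 and past 2-fold in 4 of the 9 settings, but it was dim (0.0522 in Ad-378 and 0.104 in Ad-Ctrl) and moved to -0.38 after normexp with flagged backgrounds replaced. Phka2, the liver alpha subunit of phosphorylase kinase, had -0.49, and Gsk3a, a kinase that inactivates glycogen synthase, 0.47.

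Of the pyruvate genes, Pdk4 and Pklr were both higher in the Ad-378 pool. Pdk4 inactivates the pyruvate dehydrogenase complex in fasting and had a relative signal of 8.34 ± 0.834 in Ad-378 and 4.77 ± 0.477 in Ad-Ctrl, a log2 difference of 0.81 (95% range 0.41 to 1.21), the highest of the 10. Pklr, the pyruvate kinase of liver and red cells, had 0.165 ± 0.0169 in Ad-378 and 0.122 ± 0.0129 in Ad-Ctrl, a log2 difference of 0.43. Its 95% range of 0.02 to 0.85 just left out 0. Pklr gave the lowest processed signals of the 10 genes (127 in Ad-378 and 108 in Ad-Ctrl), and it turned to -0.33 after normexp background correction with the deposited local backgrounds.

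The other kinases of the complex had lower values than Pdk4. Pdk2, the main kinase in fed liver, had a log2 difference of 0.17 (7.30 in Ad-378 and 6.50 in Ad-Ctrl), and Pdk1 had 0.33. Pdk3 was dim (0.0617 in Ad-378 and 0.122 in Ad-Ctrl) and had -0.99, past 2-fold in 4 of the 9 settings and at -0.53 after normexp with flagged backgrounds replaced. The difference of Pdk4 exceeded that of Pdk2 by 0.64, above the half-width of 0.57, but by as little as 0.53 over the other settings, below it. Of 13 measured genes of the complex, its kinases, phosphatases and carriers, 10 had a positive difference, 0 were 2-fold apart, and the median was 0.29. The phosphatase genes that reactivate the complex lay apart, Pdp2 at 0.76 and Pdp1 at -0.59.

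**Figure D2:**
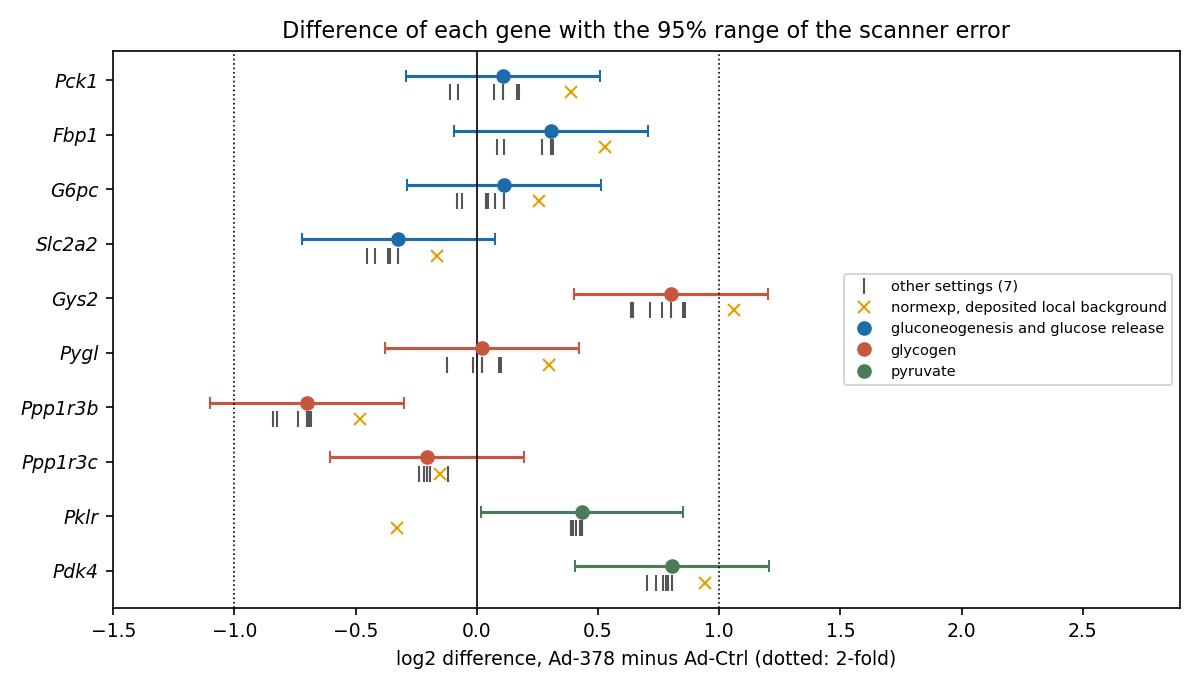
Log2 difference of each of the 10 genes, Ad-378 minus Ad-Ctrl (points, coloured by function), with the 95% range of the scanner error (bars). Ticks under each point give 7 other settings and the cross normexp with the deposited local backgrounds; dotted lines mark 2-fold. Gys2 and Pdk4 stay above 0 and Ppp1r3b below 0 in every setting drawn, while Pck1, G6pc and Pygl fall on either side of 0.

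Set against all genes, the 10 did not stand out as a list. At least 2-fold higher were 0 of 10, beside 2.81% of all 14288 genes, and at least 2-fold lower were 0 of 10, beside 4.55%. Higher outside the 95% range of the scanner error were 3 of 10 (Gys2, Pdk4 and Pklr), beside 15.7% of all genes. Lower outside it was 1 of 10 (Ppp1r3b), beside 17.5%. A positive difference was found for 7 of 10, beside 53.6% of all genes. Of these 7, Pck1, G6pc and Pygl lay below 0 under both quantile and loess normalization. The median of the 10 was 0.11, which was -0.10 under loess normalization. Within the whole distribution, 631 genes had a higher difference than Pdk4, 648 a higher one than Gys2, and 1307 a lower one than Ppp1r3b. Pck1, G6pc and Pygl lay in the middle, with 6110, 6055 and 7344 genes above them.

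**Figure D3:**
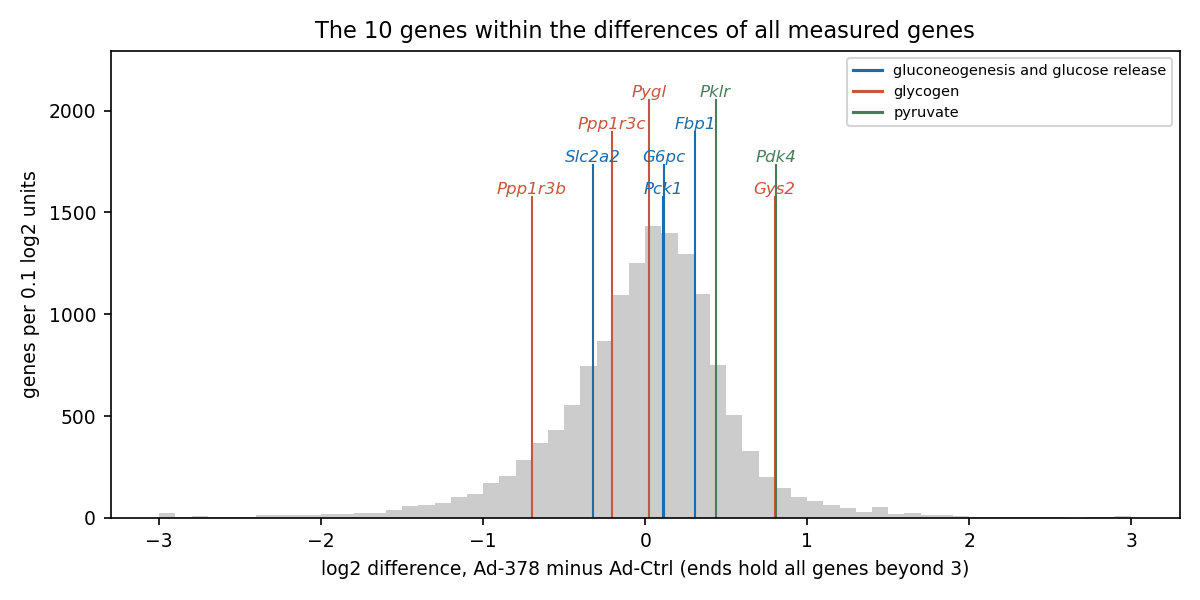
Number of genes per 0.1 log2 units of difference, Ad-378 minus Ad-Ctrl, over 14288 genes (grey bars, the end bins also holding all genes beyond 3), with a line at each of the 10 genes, coloured by function. The 10 lines lie between -0.70 and 0.81, inside 2-fold, with Gys2 and Pdk4 at the upper and Ppp1r3b at the lower end.

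In glycolysis the values were split. Of 28 glycolysis genes 27 were measured, with 2 higher and 2 lower by 2-fold or more and a median of 0.03. Aldoc, the aldolase of brain, was higher at 1.18 and Ldhb, the heart type of lactate dehydrogenase, at 1.06. Both lay inside 2-fold after normexp with the deposited backgrounds (0.94 and 0.79), and Ldhb also after normexp with flagged backgrounds replaced (0.99). Of the lower ones, Pfkfb4, a phosphofructokinase-2 isoform, was at -1.03, and inside 2-fold when taken from the series matrix (-0.67) or after normexp with flagged backgrounds replaced (-0.61). Pfkfb1, the liver isoform, which makes and removes the signal that switches glycolysis and gluconeogenesis, had 0.67 (13.4 in Ad-378 and 8.43 in Ad-Ctrl). Pgam2, the muscle phosphoglycerate mutase, passed the background filter on the Ad-378 array alone. Its signal was dim (0.0368 in Ad-378 and 0.0176 in Ad-Ctrl), a ratio of 2.09 that leaves out the scanner error.

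Several steps have one form known from hepatocytes and others known from other cells, and these were set side by side after the values had been seen. Over 7 steps the hepatocyte forms had a median log2 difference of 0.11 and the 11 other forms one of -0.34, and 9 of the 11 were below 0. The median of the other forms moved with the processing, to -0.12 with the series matrix and -0.12 with flagged backgrounds replaced before normexp, and to -0.62 with the deposited backgrounds. In 10 of 11 cases the other form lay below its hepatocyte form, and in 7 to 10 cases over the 8 other settings, the exception among the reported values being Pfkm (0.40) beside Pfkl (0.03). These are not all steps with several forms, so the share holds for the steps drawn and not for the pathways as a whole. Aldoc, at 1.18, belongs to none of the steps drawn and is a form of brain with a positive difference. Pkm lay at -0.65 beside Pklr at 0.43, Pygb at -1.49 beside Pygl at 0.02, and Gys1 at 0.12 beside Gys2 at 0.80. Among the transporters, Slc2a4, the insulin-regulated form of muscle and fat, lay at -1.99 (0.0845 in Ad-378 and 0.337 in Ad-Ctrl) beside Slc2a2 at -0.32. Pfkp had another probe with a positive difference (0.51).

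**Figure D4:**
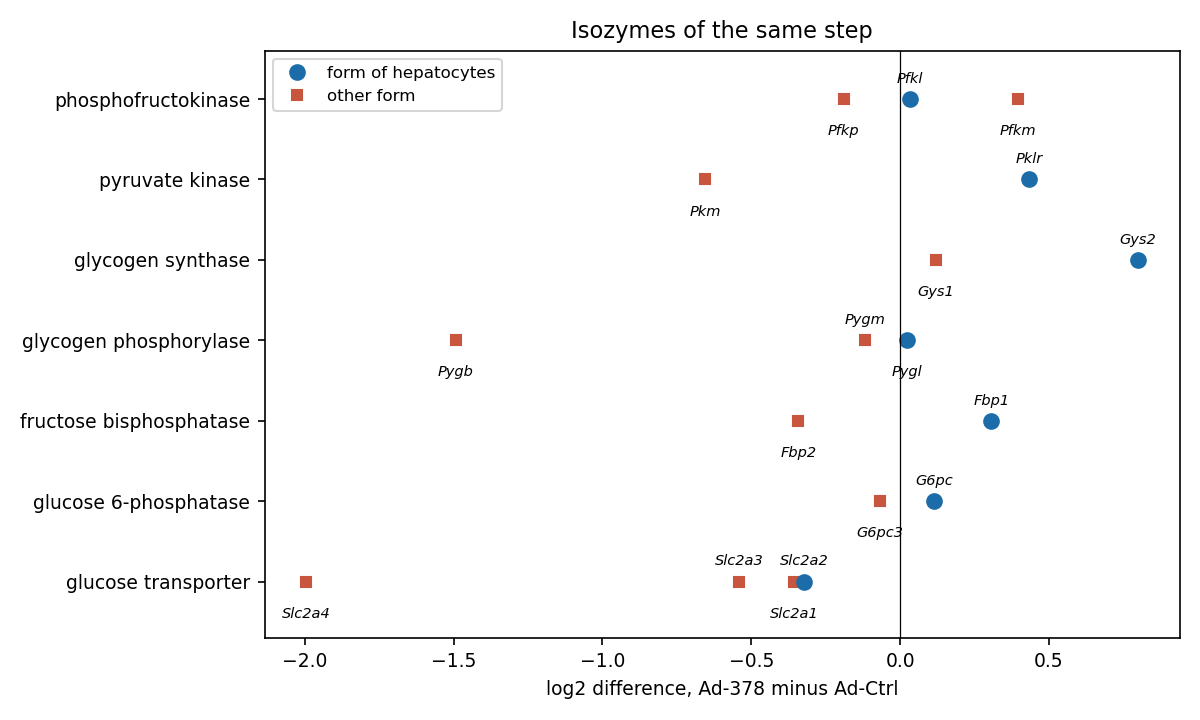
Log2 difference, Ad-378 minus Ad-Ctrl, of the hepatocyte form (circles) and the other forms (squares) of 7 steps of glucose metabolism and transport, 1 array per pool. Squares lie left of the circle of their step in 10 of 11 cases, with Pfkm as the exception, but several of these gaps are smaller than their scanner error.

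Markers of several other liver cells were lower beside the non-hepatocyte forms. On their brightest probes, all 7 measured Kupffer cell and macrophage markers had negative differences (median -0.90, summed relative signal 46.0 in Ad-378 and 88.8 in Ad-Ctrl). So did all 8 measured stellate cell and fibroblast markers (median -1.35, 35.5 in Ad-378 and 70.7 in Ad-Ctrl). All 7 proliferation genes were negative too (median -2.51, 2.59 in Ad-378 and 14.2 in Ad-Ctrl). Signals of different probes are not comparable, so these sums mostly follow the brightest probes, such as that of Dcn (25.3 in Ad-378 and 29.2 in Ad-Ctrl). The stellate cell and fibroblast markers were uneven. Col1a1, Col1a2, Col3a1, Lum and Pdgfrb lay at -2.23, -1.64, -2.71, -1.94 and -1.06, and Reln at -0.47. Dcn (-0.21) and Lrat (-0.02) lay inside the range of scanner error, as did the macrophage marker Timd4 (-0.13). Another macrophage marker, Csf1r, had -0.88 on the brightest of its 3 probes and 0.36 on another. Hepatocyte markers had a median of 0.18 over 9 genes, and Alb, which encodes albumin, was bright in both pools (205 in Ad-378 and 181 in Ad-Ctrl). Endothelial markers had a median of -0.21 over 7 genes, T and NK cell markers -0.20 over 6, neutrophil markers -0.30 over 6, cholangiocyte markers 0.77 over 5 and B and plasma cell markers 0.56 over 5. Of 6 skeletal muscle markers none was well above background on both arrays, and of 6 fat cell markers Adipoq, Lep and Plin1 were above it on neither array. The other 3 fat cell markers, Cfd, Retn and Car3, were above it on both, at -1.07, 0.01 and -0.21, and of these Car3, which hepatocytes also express, was the bright one (22.3 in Ad-378 and 25.9 in Ad-Ctrl). In whole tissue, fewer cells of a type and less RNA per cell cannot be told apart, and the part of these cells in the values of the non-hepatocyte forms was not tested.

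Among other glucose transporters, 8 of 10 genes were measured, with 1 higher (Slc2a6) and 1 lower (Slc2a4) by 2-fold or more and a median of -0.25. Slc2a6, a transporter known from macrophages, had the highest value among the 130 measured pathway genes at 2.14 (0.829 in Ad-378 and 0.188 in Ad-Ctrl), and its other probe had 1.05. Slc2a1, the widely expressed transporter, had -0.36, Slc2a3 -0.54, and the fructose transporter Slc2a5 0.76. Both Slc2a6 and Slc2a4 stayed past 2-fold in each of the 9 settings.

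The hormonal and transcriptional control of these pathways showed few large differences. All 31 genes of this list were measured, with 0 higher and 1 lower by 2-fold or more and a median of 0.07. Pik3ca, the reported target, had a relative signal of 0.333 in Ad-378 and 0.406 in Ad-Ctrl, which gave -0.28 ± 0.21 (scanner error) on the log2 scale, inside the 95% range. Foxo1 had -0.41 and its other probe -0.53, just outside that range. The receptor genes Insr (0.12) and Gcgr (0.10), the adaptor gene Irs2 (0.28), the coactivator gene Ppargc1a (0.21, with another probe at -0.19) and Igfbp1 (0.17), which insulin represses, lay inside it. Insr had another probe at 0.95, and Gcgr, Irs2 and Igfbp1 each turned below 0 in at least 1 other setting.

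The gene of this list past 2-fold was Crebbp, a coactivator of CREB, at -1.34 (0.193 in Ad-378 and 0.490 in Ad-Ctrl), and it lay between -1.38 and -1.02 in the 9 settings. Highest were Ppara, the nuclear receptor of the fasting response, at 0.86 (20.5 in Ad-378 and 11.3 in Ad-Ctrl, its 3 probes between 0.67 and 1.52, and past 2-fold in 2 of the 9 settings), and Cebpa, a hepatocyte transcription factor, at 0.80. Akt1, a kinase downstream of the insulin receptor, had -0.68. Pdk4 and Igfbp1, both known to be induced in fasting, had differences of 0.81 and 0.17, and Ppp1r3b, known to be induced by insulin, -0.70. Pck1 and G6pc, which serve glucose production in fasting, had 0.11 each. Gys2 and Pklr, which serve the storage and breakdown of glucose in the fed liver, had 0.80 and 0.43. The feeding state of the pools is not given and was not tested.

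**Figure D5:**
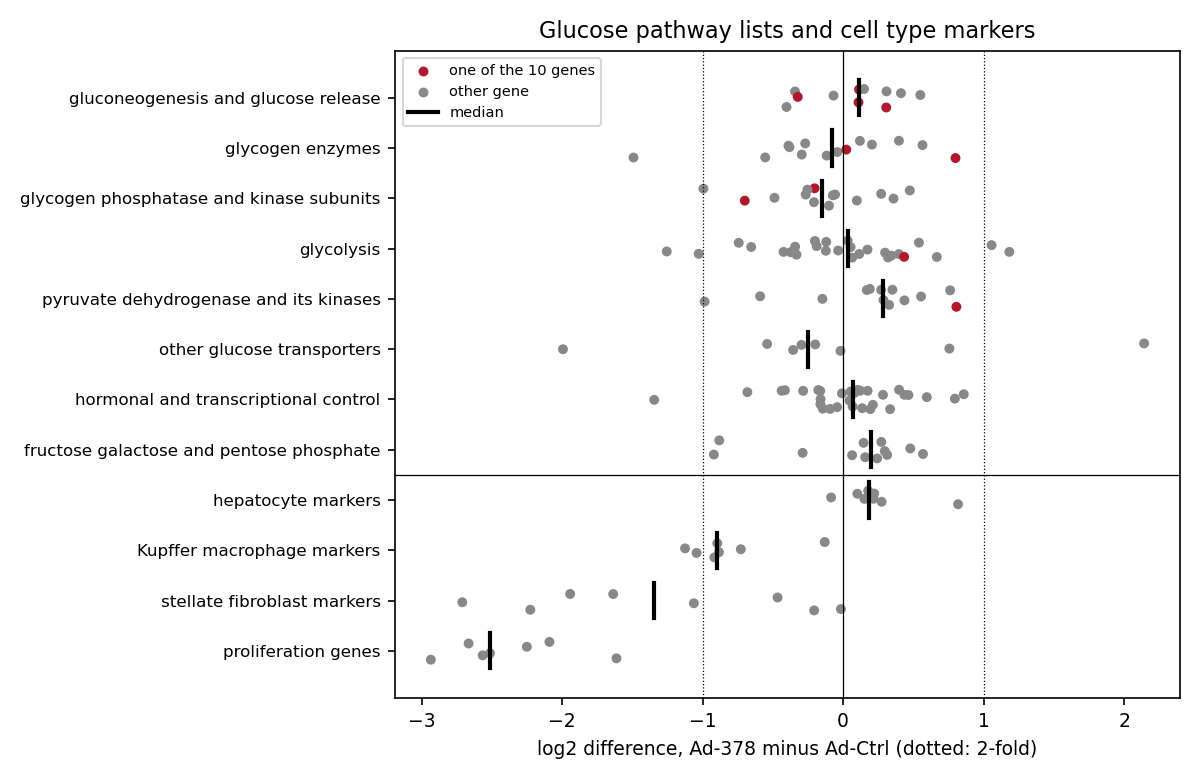
Log2 difference, Ad-378 minus Ad-Ctrl, of each measured gene of 8 glucose pathway lists and, under the line, of hepatocyte, Kupffer cell, stellate cell and proliferation lists (points, the 10 genes in red), with list medians (black bars) and dotted lines at 2-fold. The pathway medians lie between -0.25 and 0.29, whereas those of the Kupffer cell, stellate cell and proliferation lists lie at -0.90, -1.35 and -2.51.

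Over the 8 pathway lists together, 120 genes other than the 10 were measured. Of these, 3 were at least 2-fold higher, beside 2.81% of all genes, and 5 at least 2-fold lower, beside 4.55%, and their median was 0.05.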

How the data were processed

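Liver RNA of 1 pool per group was labelled with Cy3 and hybridised to 1 Agilent 1-colour array per pool. The deposited scanner files hold spot intensities on a linear scale, not scaled between arrays, with flags (other values, 0 or 1) for background, saturation and outliers. Agilent Feature Extraction is given as 9.1 per the submitters' processing notes and as 11.0.1.1 per the file headers. The deposited series matrix intensities equal the raw median signal in 100% of values, with no log or centring and column medians of 95 (Ad-378) and 103 (Ad-Ctrl).

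Control spots and outlier-flagged spots (123 of 43020 gene spots per array) were left out. Log2 processed signals were set relative to the 75th percentile of the array, and spots of a probe were averaged. Of 39401 probes, 27219 were named through unversioned RefSeq identifiers (GRCm38.p6). The probe design is on mm9, so only promoters carry coordinates. Among probes that passed the background flag in both pools, the brightest stood for its gene. No gene spot was saturated, and the number of arrays limits the precision. No test was run, since each group has 1 array.

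The members and gene lists were chosen with earlier results of these data known. The genes named are the 10, 18 fixed pathway genes, up to 4 of each pathway list with the largest differences, and pathway genes 2-fold apart or with a bound of 2-fold. Genes named beyond these (isozymes, further control genes, Khk) were chosen after their values were seen. A few list genes, with the isozyme steps that rest on them, are not reported here but stay in the list counts. Alternatives were quantile and loess (span 0.3) normalization, a percentile over detected probes, averaging of probes, normexp (offset 50, on raw median signals), the series matrix, inclusion of dim probes, and cutoffs of 1.5-fold and 3-fold. Normexp with flagged local backgrounds replaced was added after the data were seen. Only the step from probe values to gene differences was tested on simulated data, with planted differences larger than those of the 10 genes. Scaling, background correction and the naming of probes were not tested in this way. Python 3.11.15, pandas 2.3.3, numpy 2.4.6, R 4.3.3 and limma 3.58.1 were used.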

Additional observations from a re-analysis of the deposited data

How the results depend on the processing

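No paired analysis was possible because there is a single sample on each side, which also leaves no replicate to omit. Over 8 other settings and 2 thresholds, 170 of 188 recomputed values stayed within the scanner error or, for counts, within 1.5 times. Part of that share was fixed in advance. Inclusion of dim probes could not move any of the 10 genes, and averaging of probes could not move the 9 with 1 probe. The percentile over detected probes shifted all genes by the same amount. Under loess normalization Pck1 was at -0.11, Fbp1 at 0.082 and the median of the 10 at -0.10, and pathway genes at least 2-fold lower numbered 8 in place of 5. With the series matrix values they numbered 3, as they did (3) once flagged backgrounds were replaced before normexp. With no filter on background, pathway genes at least 2-fold higher numbered 5 in place of 3, since dim probes enter. At a threshold of 1.5-fold, 2 of the 10 genes were higher and 1 lower, and at 3-fold 0 and 0.

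Normexp with the deposited local backgrounds moved most. Pck1 was at 0.39, Fbp1 at 0.53, Gys2 at 1.06 (1 of the 10 then past 2-fold), Pygl at 0.30 and Ppp1r3b at -0.48, Pklr reversed to -0.33, the median of the glucose production list was 0.38, and pathway genes at least 2-fold lower numbered 10. There the fitted background mean was -10.6 in Ad-378 and -175 in Ad-Ctrl, where the lowest signal minus local background was -6224 (-63.5 in Ad-378); with flagged backgrounds replaced the means were 3.76 in Ad-378 and 4.40 in Ad-Ctrl and Pklr was at 0.41. The median of all genes moved to -0.16 in that setting, from 0.04. Its 2-fold calls over all genes were 165 higher and 1309 lower, against 402 and 650 on the reported values. They were 226 and 388 with the series matrix, 202 and 347 with flagged backgrounds replaced, and 1047 and 1172 among 20652 genes with no filter on background. The split of higher calls among all was 11.2% under normexp with the deposited backgrounds, 47.2% with no filter on background, and 38.2% on the reported values. Dim probes limit what can be read for Pklr, Pck2, Fbp2, Pdk3 and Ppp1r3d.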

Other observations

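Genes of the pentose phosphate pathway had differences of both signs. G6pdx, the glucose 6-phosphate dehydrogenase that makes NADPH, had a relative signal of 0.542 in Ad-378 and 0.999 in Ad-Ctrl (log2 difference -0.88), and Pgd, the next NADPH-producing dehydrogenase, had 2.92 in Ad-378 and 5.52 in Ad-Ctrl (-0.92). Neither was 2-fold apart on these values, and Pgd passed 2-fold in 1 of 9 settings, under loess normalization. The lactonase Pgls between them had 0.48 and H6pd, the dehydrogenase of the endoplasmic reticulum, 0.57. Of 12 measured genes of the pentose phosphate, fructose and galactose pathways, 9 had a positive difference and the median was 0.20. Khk, which phosphorylates fructose, had 0.15.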
